A study of Mus musculus with 8 samples.

Results

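Cadherins are the adhesion receptors that hold cells together at adherens junctions, and 7 of their genes were followed in mouse fibroblasts on day 8 of reprogramming to pluripotency. The members are Cdh1, Cdh2, Cdh3, Cdh4, Cdh6, Cdh11 and Cdh13, taken by their symbols from a table of 26930 genes, in which each matched 1 row. All 7 were among the 15789 genes with enough reads to be tested. Gene expression had been measured by RNA-seq of ribosome-depleted RNA in 8 libraries, 2 for each of 4 groups. They were K36M with TGF-beta, K36M with Repsox, WT with TGF-beta and WT with Repsox. K36M is a histone H3 mutant with methionine in place of a lysine that is normally methylated, and WT, also called H3 in the sample descriptions, is the unmutated histone. TGF-beta stands for the signalling protein TGFb-1 at 2.5 ng/ml, and Repsox, given at 250 nM, blocks the kinase of its receptor. All 4 groups came from mouse embryonic fibroblasts reprogrammed in AGi medium, as it is named there, with the OKSM factors (Oct4, Klf4, Sox2 and Myc), and are labelled as intermediates of that process. The labels do not give the promoter or the cell clone behind the mutant histone or the factors, nor whether replicate libraries are separate cultures, so the p-values may measure technical spread alone. No library had neither agent, and every medium difference below is therefore of TGF-beta relative to Repsox, not of either alone.

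A classical cadherin spans the membrane, binds a like cadherin on the next cell through its outer repeats in the presence of calcium, and holds p120 and beta-catenin on its tail, which alpha-catenin links to actin. Type I cadherins include E-cadherin (Cdh1), N-cadherin (Cdh2), P-cadherin (Cdh3) and R-cadherin (Cdh4), and type II cadherins include K-cadherin (Cdh6) and OB-cadherin (Cdh11). Cdh13 encodes T-cadherin, which is anchored by a lipid and has no tail, so it is not a classical cadherin in the strict sense. In an epithelial to mesenchymal transition cells lose E-cadherin and gain N-cadherin, which is called the cadherin switch, and TGF-beta is a well known inducer of it. Reprogramming of fibroblasts runs the other way and needs a gain of E-cadherin.

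Libraries held 10928302 to 15594217 counts, and the rank correlation across genes between the 2 libraries of a group was 0.966 to 0.970. Their scatter relative to counting error (chi-square per gene, for genes with at least 20 summed counts) was less even. It was 5.43 in K36M under TGF-beta, 2.70 in K36M under Repsox, 2.75 in WT under TGF-beta and 9.09 in WT under Repsox. Levels below are CPM (counts scaled to a common library size, after TMM factors) and are given for each library or as mean ± SD (n = 2 libraries). Differences are log2 fold changes ± SE from edgeR's quasi-likelihood test over all 15789 genes, and called genes are those whose adjusted p (Benjamini-Hochberg) was below 0.05. In bulk RNA fewer cells of a kind and less RNA per cell cannot be told apart.

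Among these 7 genes, Cdh1 made up most of the transcripts in K36M cells in both media, whereas in WT cells it led only under Repsox. To compare genes with each other, CPM was divided by the length of all exons of the gene in kilobases. On that scale Cdh1 took 94.4 ± 0.102% of the sum over the 7 genes in K36M under TGF-beta, 92.9 ± 0.0440% in K36M under Repsox, 7.60 ± 3.02% in WT under TGF-beta and 71.0 ± 0.0444% in WT under Repsox. Cdh2 took 0.345 ± 0.0460%, 0.0771 ± 0.0168%, 37.2 ± 2.53% and 1.78 ± 0.0915% in the same groups. In WT under TGF-beta, Cdh2 was followed by Cdh6 with 25.3 ± 0.555%, Cdh11 with 15.0 ± 0.113% and Cdh13 with 12.8 ± 1.33%. Their order depends on the length used: with the longest transcript of each gene in place of all exons, Cdh13 came second there, with 21.7%, before Cdh6 with 17.6%. In WT under Repsox the genes after Cdh1 were Cdh11 with 15.2 ± 0.925% and Cdh13 with 7.79 ± 0.530%, and with the longest transcript Cdh13 came before Cdh11 here too, with 16.6% against 13.2%, and Cdh1 took 63.9%.

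The sum of all 7 levels was also unequal. It was 259 ± 2.65 CPM per kilobase in K36M under TGF-beta, 320 ± 8.22 in K36M under Repsox, 92.4 ± 0.196 in WT under TGF-beta and 207 ± 3.10 in WT under Repsox. The ratio of Cdh1 to Cdh2 per exon length within a library, taken after adding 0.5 to each count, does not depend on library scaling. It was 300 and 249 in the libraries of K36M under TGF-beta and 1398 and 1025 in those of K36M under Repsox. In WT under TGF-beta it was turned round, with Cdh2 3.63 and 7.13 times Cdh1, while in WT under Repsox Cdh1 was 38.5 and 41.4 times Cdh2. Only the 2 libraries of WT under TGF-beta had more Cdh2 than Cdh1 per exon length among the 8 libraries.

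**Figure D1:**
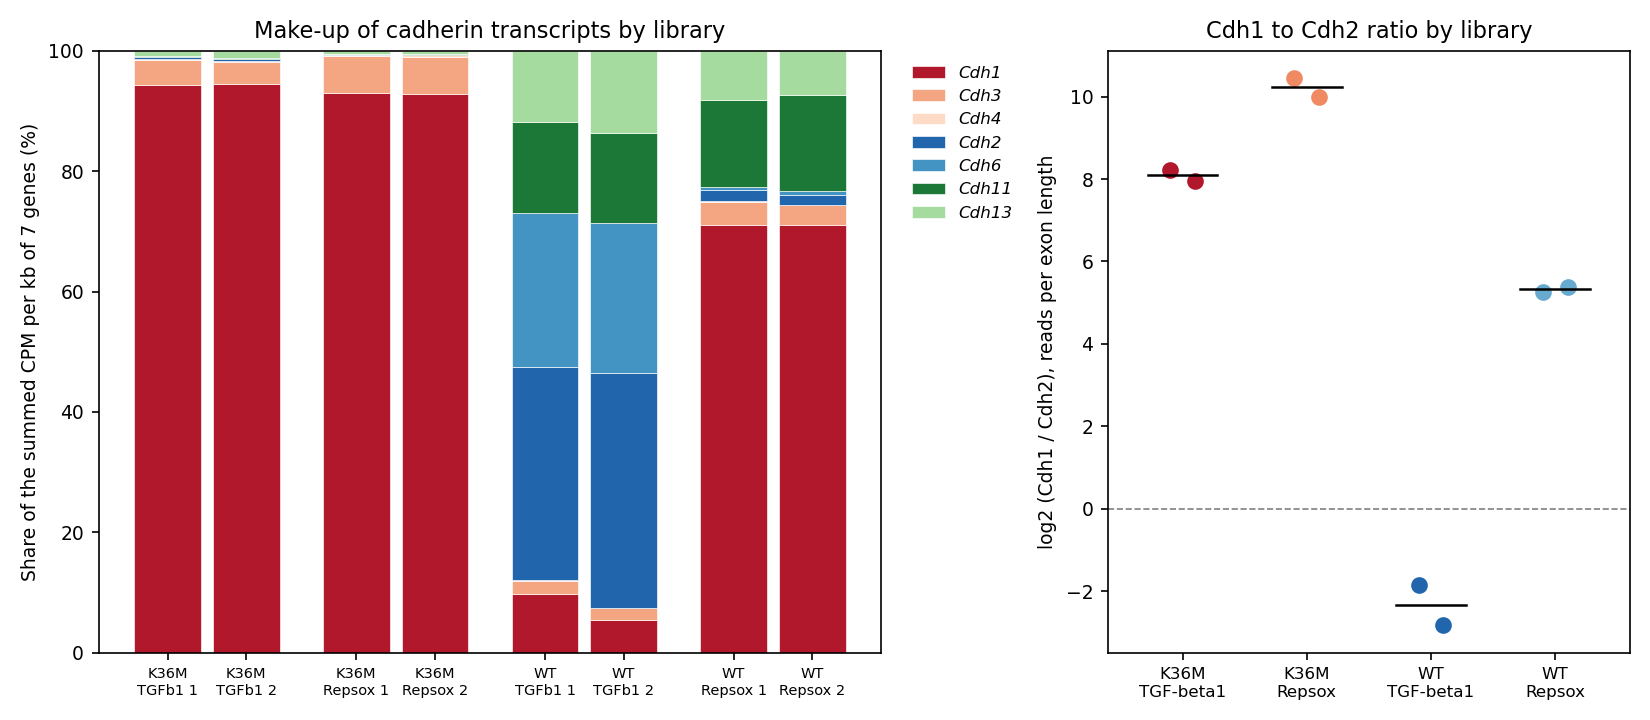
Left, share of each of 7 cadherin genes in their summed CPM per kilobase of exon (%), 1 bar for each library. Right, log2 of the Cdh1 to Cdh2 ratio per exon length (0.5 added to each count), with points for libraries and lines for the mean of 2. Cdh1 takes 92.9 to 94.4% in K36M libraries, and the ratio falls below 0 on the log2 scale only in WT under TGF-beta, where its mean is -2.35.

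Cdh1 (chromosome 8, 109127251 to 109194146 on mm9, plus strand) encodes E-cadherin, the junction cadherin of epithelia and of pluripotent cells. It stood at 1109.6 and 1127 CPM in K36M under TGF-beta, 1383 and 1333 in K36M under Repsox, 41.1 and 23.1 in WT under TGF-beta, and 666 and 680.0 in WT under Repsox. All 4 groups lay apart, with both K36M groups above both WT groups. In WT it was 21.2-fold lower under TGF-beta than under Repsox (log2 -4.41 ± 0.14, adjusted p = 1.74e-17). In K36M it was 1.21-fold lower (log2 -0.28 ± 0.11, adjusted p = 0.0428). That small difference was not called with RLE size factors (adjusted p = 0.0607), with upper-quartile factors (0.114), with DESeq2 (0.503) or when any 1 of the 4 K36M libraries was left out (0.0717 to 0.159), and its adjusted p ran from 8.00e-07 to 0.503 over all 15 alternatives. The medium difference in K36M minus that in WT, which is the interaction, was log2 4.13 ± 0.17 (adjusted p = 1.64e-14). K36M cells had 35.2 times the Cdh1 of WT cells under TGF-beta (log2 5.14 ± 0.14, adjusted p = 1.45e-18) but 2.02 times under Repsox (log2 1.01 ± 0.11, adjusted p = 8.81e-08). The 2 libraries of WT under TGF-beta differed 1.78-fold in Cdh1, more than counting error gives, and leaving out either kept the WT medium difference between log2 -4.86 and -4.04.

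Cdh3 (chromosome 8, 109034791 to 109080808, plus strand) encodes P-cadherin, found in basal epithelial layers and in placenta. It lies 46.4 kb upstream of Cdh1 on the same strand. It stood at 43.2 and 38.0 CPM in K36M under TGF-beta, 79.6 and 77.3 in K36M under Repsox, 8.35 and 7.32 in WT under TGF-beta, and 31.7 and 27.7 in WT under Repsox. The order of the groups was that of Cdh1, with no overlap between any pair of groups. TGF-beta samples were lower in both genotypes, 1.93-fold in K36M (log2 -0.95 ± 0.10, adjusted p = 9.93e-08) and 3.81-fold in WT (log2 -1.93 ± 0.14, adjusted p = 2.41e-11). The interaction was log2 0.98 ± 0.17 (adjusted p = 5.62e-05), against 4.13 for Cdh1. K36M exceeded WT 5.20-fold under TGF-beta (log2 2.38 ± 0.13) and 2.64-fold under Repsox (log2 1.40 ± 0.11).

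Cdh4 (chromosome 2, 179177136 to 179634078, plus strand) encodes R-cadherin, known from retina and developing kidney, and was read at low depth. It had 30 and 30 counts in K36M under TGF-beta, 82 and 51 in K36M under Repsox, 2 and 6 in WT under TGF-beta, and 17 and 19 in WT under Repsox, or 2.34 and 2.62, 5.40 and 4.10, 0.172 and 0.431, and 1.15 and 1.44 CPM. The groups did not overlap and their order was that of Cdh1. K36M stood 7.74-fold above WT under TGF-beta (log2 2.95 ± 0.53, adjusted p = 3.32e-05) and 3.69-fold above it under Repsox (log2 1.88 ± 0.37, adjusted p = 0.000151). In WT the TGF-beta samples were 4.03-fold lower (log2 -2.01 ± 0.57, adjusted p = 0.00425). In K36M they were 1.92-fold lower (log2 -0.94 ± 0.34, adjusted p = 0.0267), a call lost with DESeq2 (adjusted p = 0.127) and without K36M Repsox library 1 (0.246), K36M TGF-beta library 1 (0.138) or library 2 (0.0754), over a range of 0.00798 to 0.246 in 15 alternatives. The interaction did not pass (log2 1.07 ± 0.68, adjusted p = 0.202). Leaving out library 1 or 2 of WT under TGF-beta, the log2 value was 2.49 or 3.78 for K36M against WT under TGF-beta and -1.55 or -2.84 for the medium difference in WT. An exon of Cdh4 overlaps Gm10711 in the GENCODE vM1 annotation, and how reads shared between them were counted is not given in the sources used here.

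**Figure D2:**
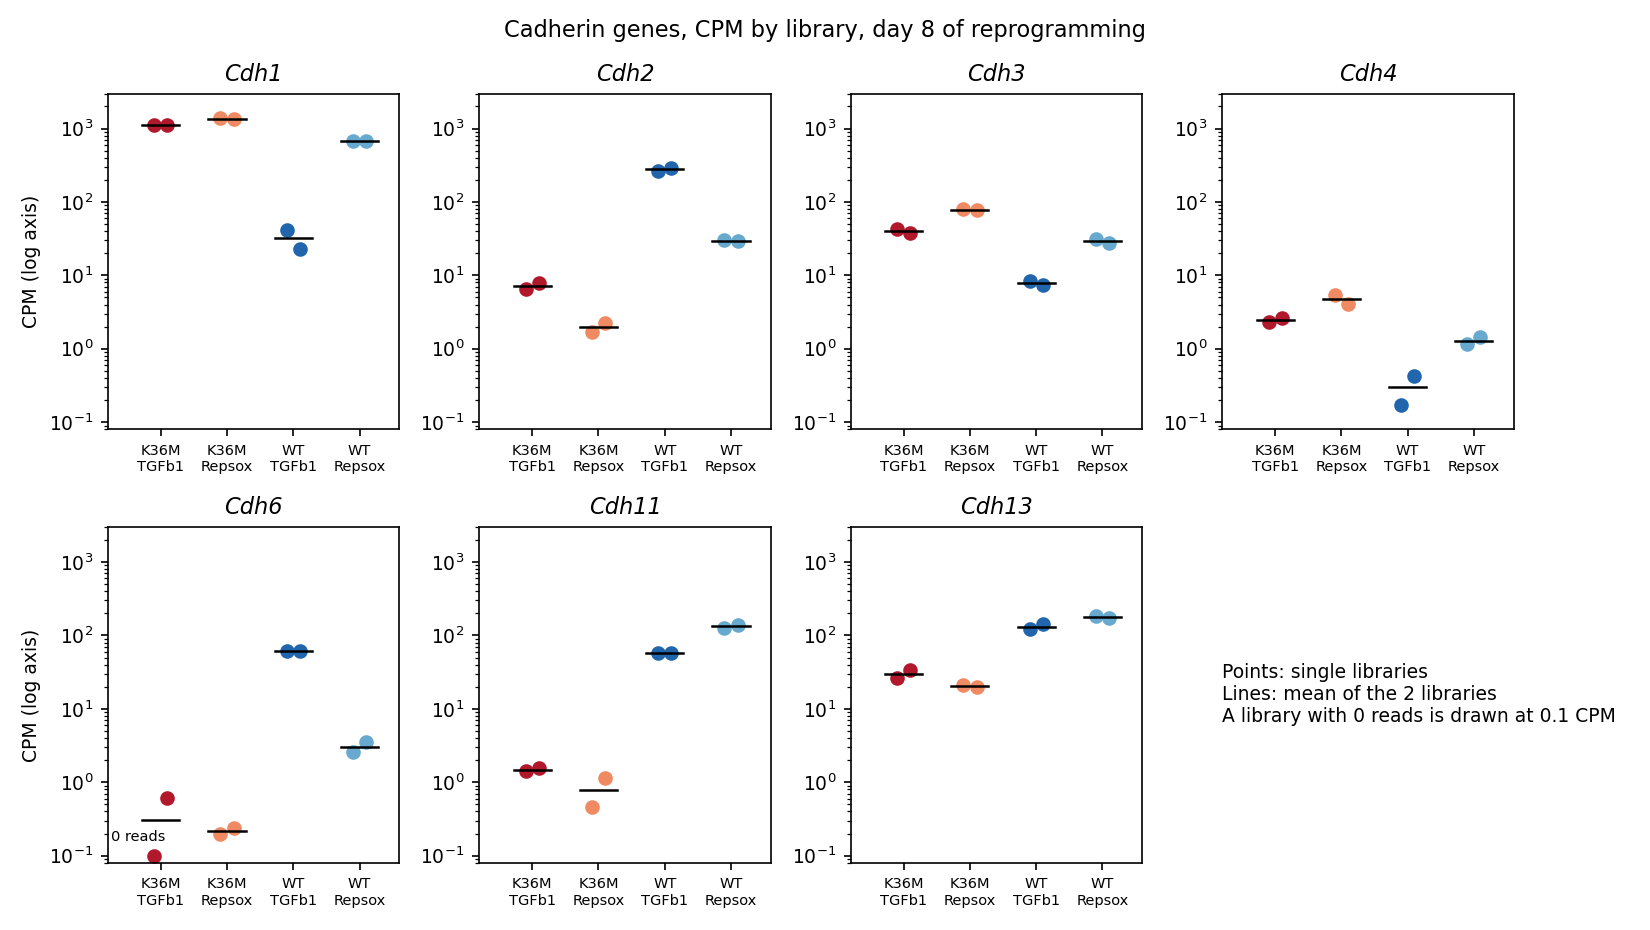
CPM of each cadherin gene (log axis) in the 8 libraries of day 8, by group. Points are libraries and lines the mean of 2. Cdh1, Cdh3 and Cdh4 are lowest in WT under TGF-beta, Cdh2 and Cdh6 are highest there, and Cdh11 and Cdh13 are highest in WT under Repsox. The K36M TGF-beta library with 0 reads of Cdh6 is drawn at 0.1 CPM.

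Cdh2 (chromosome 18, 16747386 to 16967755, minus strand) encodes N-cadherin, the cadherin of neural and mesenchymal cells that is gained in the switch. It stood at 6.49 and 7.95 CPM in K36M under TGF-beta, 1.71 and 2.25 in K36M under Repsox, 263 and 291 in WT under TGF-beta, and 30.5 and 28.9 in WT under Repsox. TGF-beta samples were higher than Repsox samples in both genotypes, and every K36M library lay below every WT library. The medium difference was 3.66-fold in K36M (log2 1.87 ± 0.21, adjusted p = 9.43e-08) and 9.33-fold in WT (log2 3.22 ± 0.10, adjusted p = 9.04e-18). The interaction was log2 -1.35 ± 0.25 (adjusted p = 0.000113), so the fold rise was smaller in K36M as well as the level. K36M cells under TGF-beta, at 7.22 ± 1.04 CPM, also stood below WT cells under Repsox, at 29.7 ± 1.09 CPM, a pair that was not tested. Against WT, K36M was 38.5-fold lower under TGF-beta (log2 -5.27 ± 0.12, adjusted p = 6.58e-20) and 15.1-fold lower under Repsox (log2 -3.92 ± 0.16, adjusted p = 4.48e-15).

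Cdh6 (chromosome 15, 12963955 to 13103394, minus strand) encodes K-cadherin, a type II cadherin of developing kidney and neural crest. Counts were 0 and 7 in K36M under TGF-beta, 3 and 3 in K36M under Repsox, 724 and 844 in WT under TGF-beta, and 38 and 47 in WT under Repsox. In CPM these were 0 and 0.612, 0.198 and 0.241, 62.3 and 60.6, and 2.56 and 3.55. Both K36M groups lay far below both WT groups, and the K36M groups overlapped each other. WT cells had 20.2 times as much under TGF-beta as under Repsox (log2 4.34 ± 0.21, adjusted p = 4.13e-14). The medium difference in K36M was log2 0.40 ± 0.91 (adjusted p = 0.750), which at 7 and 6 counts in the 2 groups cannot be resolved, and it turned to -4.61 without K36M TGF-beta library 2. The interaction was log2 -3.94 ± 1.10 (adjusted p = 0.00478), or -2.88 and -8.94 without K36M TGF-beta library 1 and 2. K36M was lower than WT by log2 -7.68 ± 0.32 under TGF-beta (-6.63 and -12.69 without the same 2 libraries) and by log2 -3.75 ± 0.52 under Repsox, fitted values that depend on a prior count at such low reads.

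Cdh6 had the largest medium difference in WT after Cdh1 among the 7 genes, and it is the member for which a RefSeq promoter sequence was at hand (1 of 7). The 250 bases before its start in RefSeq on GRCm38.p6 (chr15:13173676-13173925, minus strand) are shown 5′ to 3′ because no other member's were at hand, with 2 overlapping GC boxes in capitals.
Cdh6: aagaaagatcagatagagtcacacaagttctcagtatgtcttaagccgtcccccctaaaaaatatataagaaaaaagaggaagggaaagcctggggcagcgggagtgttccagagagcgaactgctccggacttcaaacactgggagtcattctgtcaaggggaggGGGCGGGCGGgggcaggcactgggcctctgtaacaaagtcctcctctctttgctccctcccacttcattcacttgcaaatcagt
Each motif was searched on both strands. The GC box GGGCGG (or CCGCCC), which binds SP factors, was found 2 times, starting 84 and 80 bases before the start and sharing letters, and at least 1 is present in 32.7% of 32851 such windows in RefSeq. The E-box CACCTG (or CAGGTG) of SNAI and ZEB factors, the SMAD element CAGAC (or GTCTG) and the AP-1 site TGANTCA were not in this window, and 17.2%, 42.2% and 6.7% of all windows hold them. A match is only a match of letters, and this window says nothing of factors bound there or elsewhere.

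Cdh11 (chromosome 8, 105156895 to 105309011, minus strand) encodes OB-cadherin, the cadherin of fibroblasts and osteoblasts. It stood at 1.41 and 1.57 CPM in K36M under TGF-beta, 0.461 and 1.13 in K36M under Repsox, 58.5 and 58.1 in WT under TGF-beta, and 125 and 139.7 in WT under Repsox. Unlike Cdh2 and Cdh6 it was lower, not higher, in WT under TGF-beta, by 2.27-fold (log2 -1.18 ± 0.10, adjusted p = 6.21e-10). In K36M the difference ran upward (log2 0.95 ± 0.38, adjusted p = 0.0451), at 18 and 18 against 7 and 14 counts. That call was lost in 6 of 15 alternatives (adjusted p 0.00811 to 0.524), with log2 values of 0.39 and 1.66 without K36M Repsox library 1 and 2. The interaction was log2 2.14 ± 0.40 (adjusted p = 0.000104), or 1.58 and 2.85 without those libraries. K36M was 39.0-fold lower than WT under TGF-beta (log2 -5.29 ± 0.18) and 172-fold lower under Repsox (log2 -7.43 ± 0.18; -6.87 and -8.14 without K36M Repsox library 1 and 2).

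Cdh13 (chromosome 8, 120807633 to 121848821, plus strand) encodes T-cadherin, known from vessels and muscle as a receptor of adiponectin. It stood at 26.4 and 33.6 CPM in K36M under TGF-beta, 21.3 and 20.1 in K36M under Repsox, 121.8 and 141.5 in WT under TGF-beta, and 187 and 173 in WT under Repsox. Every K36M library lay below every WT library, and the media moved it little within a genotype. The medium difference was log2 0.53 ± 0.12 in K36M (adjusted p = 0.000995, or 0.0503 once K36M TGF-beta library 2 is left out, over 2.56e-05 to 0.0503 in 15 alternatives) and log2 -0.45 ± 0.10 in WT (adjusted p = 0.000330). These differ in sign, with an interaction of log2 0.98 ± 0.16 (adjusted p = 1.54e-05). K36M was 4.40-fold lower than WT under TGF-beta (log2 -2.14 ± 0.11) and 8.67-fold lower under Repsox (log2 -3.12 ± 0.11), the smallest genotype differences among the 4 cadherins that were lower in K36M.

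By comparison, the genotype split the 7 genes in the same way in both media. Cdh1, Cdh3 and Cdh4 were higher and Cdh2, Cdh6, Cdh11 and Cdh13 lower in K36M than in WT. Under TGF-beta all 7 were called, as were 70.3% of all tested genes, with 3 higher (36.4% of all genes) and 4 lower (33.9%). Under Repsox all 7 were called, against 55.8% of all genes, with 3 higher (28.8%) and 4 lower (26.9%). The K36M and WT libraries did not overlap for any of the 7, which held for 85.2% of all genes under TGF-beta and 75.4% under Repsox. All 7 differed at least 2-fold in each medium, as did 39.2% of all genes under TGF-beta and 24.4% under Repsox. A difference of at least 4-fold was called for 7 of 7 under TGF-beta (21.5% of all genes) and 4 of 7 under Repsox (11.9%). The median size of the log2 difference was 5.14 over the 7 genes against 0.79 over all genes under TGF-beta, and 3.12 against 0.47 under Repsox. No library is shared by these 2 comparisons.

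The media split them otherwise. TGF-beta against Repsox gave 6 of 7 calls in K36M, where 48.3% of all genes were called, with 3 higher (24.7% of all genes) and 3 lower (23.6%). In WT it gave 7 of 7 calls, where 62.4% were called, with 2 higher (29%) and 5 lower (33.4%). Libraries of the 2 media did not overlap for 6 of 7 in K36M (75.1% of all genes) and for 7 of 7 in WT (79.4%). A difference of at least 2-fold was called for 1 of 7 in K36M (Cdh2), as for 19% of all genes, and for 6 of 7 in WT, as for 30.6%. In WT 4 of 7 differed at least 4-fold, as did 15.6% of all genes. The median size of the log2 difference was 0.94 in K36M against 0.42 over all genes, and 2.01 in WT against 0.62. The interaction was called for 6 of 7, with Cdh4 the exception and 51% of all genes called. It was above 0 for 4 of them (28.5% of all genes) and below 0 for 2 (22.6%), and at least 2-fold for 4 (26.8%). A genotype comparison and a medium comparison share a group of libraries, so their values are given side by side only.

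**Figure D3:**
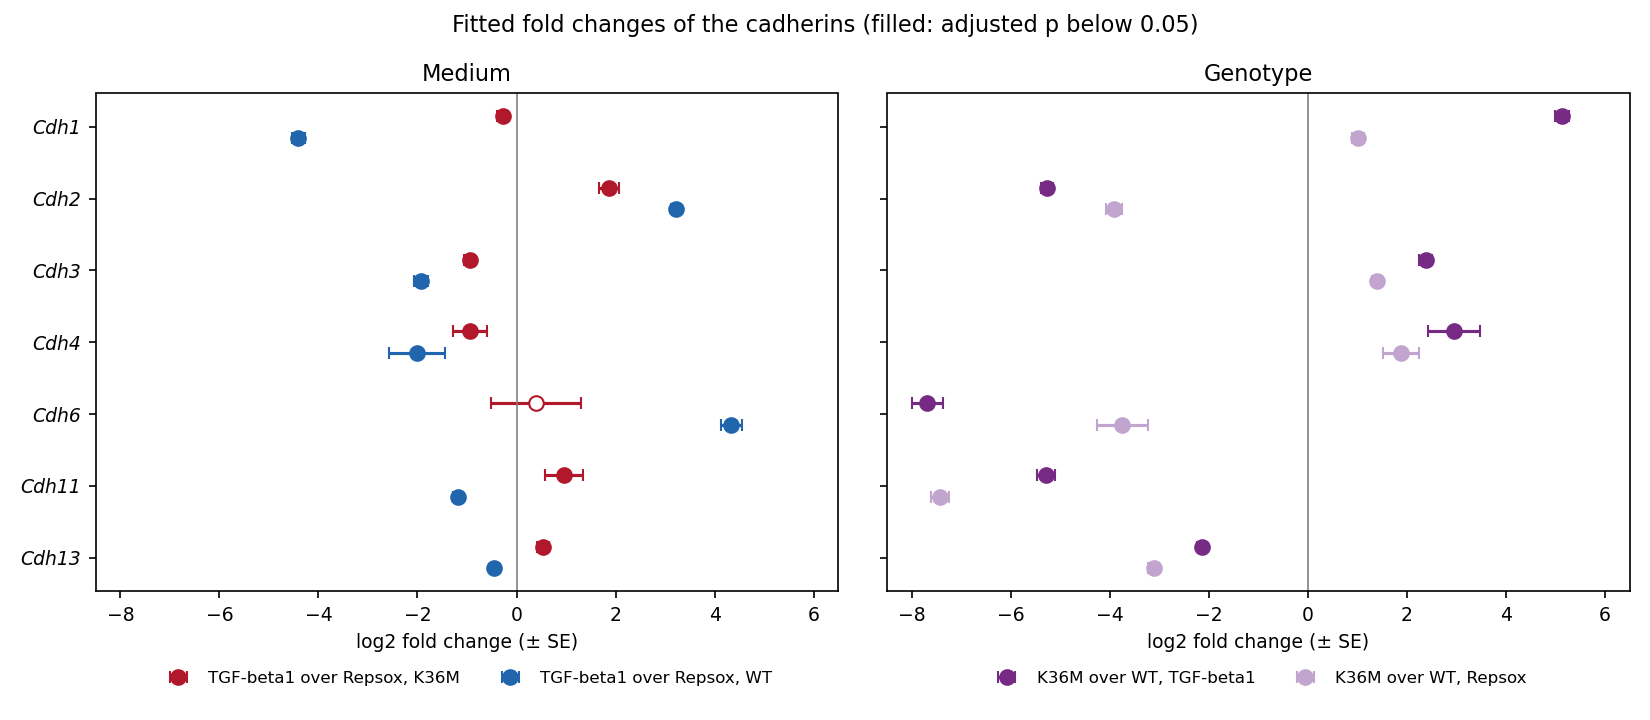
Log2 fold changes (± SE) of the 7 cadherins from edgeR, left for TGF-beta over Repsox in K36M and in WT, right for K36M over WT in each medium. Filled points passed an adjusted p of 0.05. The medium values run from -0.95 to 1.87 in K36M and from -4.41 (Cdh1) to 4.34 (Cdh6) in WT, and Cdh6 in K36M is the open point.

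Catenins and plaque proteins, which couple cadherins to actin, had median differences near 0 in every comparison. Of 15 tested of 17 listed, 7 were higher and 6 lower in K36M than in WT under TGF-beta (36.4% and 33.9% of all genes; median log2 0.08), and 8 higher and 3 lower under Repsox (28.8% and 26.9%; median 0.17). TGF-beta against Repsox gave 6 higher and 5 lower in K36M (24.7% and 23.6%; median 0.02) and 6 higher and 7 lower in WT (29% and 33.4%; median -0.12). Ctnnb1, beta-catenin, stood at 985 ± 14.5 CPM in K36M under TGF-beta, 1003 ± 13.8 in K36M under Repsox, 869 ± 24.0 in WT under TGF-beta and 858 ± 4.57 in WT under Repsox, with a medium difference of log2 -0.03 ± 0.06 in K36M and 0.02 ± 0.06 in WT (each changed sign with upper-quartile factors). Ctnna1, alpha-catenin, was higher in K36M than in WT by log2 0.32 ± 0.06 under TGF-beta and 0.81 ± 0.06 under Repsox. For Ctnnd1, p120-catenin, the genotype values were log2 0.02 ± 0.06 under TGF-beta (adjusted p = 0.774, below 0 with RLE factors) and 0.62 ± 0.06 under Repsox (adjusted p = 9.71e-09). Jup, plakoglobin, rose under TGF-beta in both genotypes, by log2 0.62 ± 0.07 in K36M and 0.87 ± 0.07 in WT.

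Differences above 2-fold in that list included those of Plekha7, which joins p120 to microtubules at epithelial junctions, Ctnnd2, a p120 relative best known in neurons, and Ctnnal1, an alpha-catenin relative that was lower under TGF-beta in WT (log2 -1.61). Plekha7 stood at 187 ± 5.92 CPM in K36M under TGF-beta, 222 ± 6.65 in K36M under Repsox, 25.0 ± 1.87 in WT under TGF-beta and 124 ± 16.9 in WT under Repsox, with an interaction of log2 2.07 ± 0.13 (adjusted p = 1.79e-11). Ctnnd2 was lower in K36M than in WT by log2 -1.47 ± 0.11 under TGF-beta and -2.26 ± 0.13 under Repsox. Mllt4, afadin, which links nectins to actin, was higher in K36M by log2 1.11 ± 0.07 and 0.65 ± 0.07.

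Nectins, the immunoglobulin-like receptors that join cells beside cadherins, split in the same comparisons. Of 5 listed and tested, 2 were higher and 2 lower in K36M than in WT under TGF-beta (36.4% and 33.9% of all genes), and 3 higher and 2 lower under Repsox (28.8% and 26.9%). Pvrl2 (nectin-2) stood at 241 ± 28.4 CPM in K36M under TGF-beta against 30.7 ± 1.78 in WT (log2 2.97 ± 0.11). Pvrl4 (nectin-4), an epithelial nectin, stood at 43.6 ± 3.68 against 1.64 ± 0.123 CPM (log2 4.72 ± 0.20). Pvrl3 (nectin-3) ran the other way, at 19.9 ± 2.33 CPM in K36M under TGF-beta against 139 ± 2.74 in WT (log2 -2.80 ± 0.12), and was 5.33-fold higher under TGF-beta than under Repsox in WT (log2 2.41 ± 0.12).

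Of 25 other cadherins listed, 13 were tested. K36M against WT gave 5 higher and 4 lower under TGF-beta (36.4% and 33.9% of all genes), and 7 higher and 1 lower under Repsox (28.8% and 26.9%). TGF-beta against Repsox gave 4 higher and 3 lower in K36M (24.7% and 23.6% of all genes), and 3 higher and 6 lower in WT (29% and 33.4%). Clstn1, a calsyntenin, was the most abundant in CPM in K36M, at 246 ± 1.204 under TGF-beta and 155 ± 4.10 under Repsox. Cdh10, a type II cadherin of brain, stood at 2.09 ± 0.748 CPM in K36M under TGF-beta, 0.234 ± 0.238 in K36M under Repsox, 60.7 ± 0.923 in WT under TGF-beta and 0.538 ± 0.0937 in WT under Repsox. Its medium difference was log2 3.19 ± 0.52 in K36M and 6.80 ± 0.25 in WT, with an interaction of -3.61 ± 0.94 (adjusted p = 0.00284), the same signs as Cdh2. Clstn2, a calsyntenin of synapses, likewise stood at 43.7 ± 2.61 CPM in WT under TGF-beta and below 1 CPM in the other groups. Clstn3 and Cdhr1, a photoreceptor cadherin, were highest in K36M under TGF-beta, at 18.6 ± 1.10 and 14.3 ± 0.840 CPM. Cdh5, the endothelial VE-cadherin, was highest in K36M under Repsox, at 5.91 ± 0.856 CPM, and 0.200 ± 0.159 CPM in K36M under TGF-beta (log2 -4.79 ± 0.52).

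Desmosomal cadherins form the spot junctions of epithelia, and 4 of 9 listed were tested. K36M was higher than WT for 3 of 4 under TGF-beta, where 36.4% of all genes were, and for 2 of 4 under Repsox, where 28.8% were. Dsg2, the desmoglein of simple epithelia, stood at 113 ± 2.36 CPM in K36M under TGF-beta, 152 ± 9.62 in K36M under Repsox, 6.29 ± 2.19 in WT under TGF-beta and 60.7 ± 3.43 in WT under Repsox, the same order as Cdh1. Dsc2 was higher in K36M by log2 1.67 ± 0.10 and 0.90 ± 0.10 in the 2 media. Dsg3, a desmoglein of stratified epithelia, was higher under TGF-beta in both genotypes, by log2 4.15 ± 0.53 in K36M and 2.48 ± 0.49 in WT, at 4.67 ± 0.310 and 2.85 ± 1.08 CPM.

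Protocadherins and the giant Fat, Dachsous and Celsr cadherins were mostly lower in K36M. Of 17 tested of 21 listed, 5 were higher and 10 lower than in WT under TGF-beta (36.4% and 33.9% of all genes; median log2 -1.47, against 0.05 over all genes), and 3 higher and 13 lower under Repsox (28.8% and 26.9%; median -2.31, against 0.04). Fat1, an actin-regulating giant cadherin whose long transcript gathers more reads per molecule, was at 1699 ± 40.5 CPM in K36M under TGF-beta, 1215 ± 22.4 in K36M under Repsox, 2839 ± 148 in WT under TGF-beta and 1678 ± 34.8 in WT under Repsox. Fat4, a Hippo and polarity regulator of mesenchyme, stood at 0.759 ± 0.410 CPM in K36M under TGF-beta against 72.7 ± 0.667 in WT, and at 0.439 ± 0.0619 against 20.7 ± 1.97 CPM under Repsox. Pcdh7 stood at 5.05 ± 0.398 against 67.2 ± 3.41 CPM and at 1.63 ± 0.0265 against 68.8 ± 0.902 CPM. Celsr1, a planar polarity cadherin of epithelia, was higher in K36M instead, as Cdh1 was, at 103 ± 7.16 CPM in K36M and 2.10 ± 0.932 in WT under TGF-beta (log2 5.65 ± 0.16). In K36M it was also higher under TGF-beta than under Repsox, where it stood at 69.4 ± 1.01 CPM (log2 0.57 ± 0.10). Cdh1 was not. Pcdh12, a vascular and trophoblast protocadherin, was highest in K36M under Repsox, at 23.7 ± 2.18 CPM against 1.42 ± 0.769 in WT.

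Transcription factors known to repress Cdh1 were mostly lower, not higher, in WT under TGF-beta than under Repsox. Of 11 tested of 12 listed, 4 were higher and 1 lower in K36M (24.7% and 23.6% of all genes were), and 1 higher and 7 lower in WT (29% and 33.4%). The gene that rose in WT was Zeb2, a zinc finger repressor. It stood at 6.07 ± 0.187 CPM in K36M under TGF-beta, 3.35 ± 1.29 in K36M under Repsox, 111 ± 10.6 in WT under TGF-beta and 66.1 ± 2.64 in WT under Repsox. Its medium difference was log2 0.89 ± 0.22 in K36M (adjusted p = 0.00196) and 0.75 ± 0.11 in WT (adjusted p = 2.22e-06), with an interaction of 0.14 ± 0.24 (adjusted p = 0.673). K36M stood 18.3-fold below WT under TGF-beta and 20.1-fold below it under Repsox (log2 -4.20 ± 0.14 and -4.33 ± 0.16). Twist1, a basic helix-loop-helix factor of mesenchyme, stood at 1.71 ± 0.682 CPM in K36M under TGF-beta, 1.32 ± 0.838 in K36M under Repsox, 18.9 ± 2.57 in WT under TGF-beta and 39.0 ± 1.95 in WT under Repsox. Twist2 was 24.1-fold lower under TGF-beta in WT (log2 -4.59 ± 0.34). Snai2 (Slug) was 2.07-fold lower there (log2 -1.05 ± 0.22), and Snai1 (Snail) had log2 -0.33 ± 0.15 (adjusted p = 0.0579, which passed in 5 of 15 alternatives).

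K36M had less of most of these repressors than WT, with 7 lower and 2 higher of 11 under TGF-beta (33.9% and 36.4% of all genes), and 9 lower and 1 higher under Repsox (26.9% and 28.8%). Snai2 stood at 0.565 ± 0.305 CPM in K36M under TGF-beta against 7.04 ± 1.12 in WT, and at 0.146 ± 0.0206 against 14.6 ± 2.18 CPM under Repsox. Snai1 differed less, by log2 -0.84 ± 0.16 and -1.30 ± 0.16. Snai3 was higher in K36M, by log2 3.39 ± 0.27 and 0.72 ± 0.20. The entry used for Zeb1 was read at no more than 0.962 ± 0.265 CPM in any group mean, too low to compare firmly. For listed genes only the first entry of a symbol was used. Whether reads of Zeb1 fell on another entry was not examined, so this is not a measure of its full level. Tcf3, which encodes the E proteins E12 and E47, was higher in K36M by log2 0.37 ± 0.09 under TGF-beta and lower by log2 -0.35 ± 0.09 under Repsox.

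Factors known to keep Cdh1 active were mostly lower in WT under TGF-beta. Of 11 tested of 12 listed, 5 were lower and 2 higher in K36M (23.6% and 24.7% of all genes; median log2 -0.35, against 0.01 over all genes), and 9 lower and 1 higher in WT (33.4% and 29%; median -3.72, against -0.07). Tfap2c, an AP-2 factor, stood at 79.3 ± 1.53 CPM in K36M under TGF-beta, 213 ± 10.1 in K36M under Repsox, 2.22 ± 0.506 in WT under TGF-beta and 125 ± 5.36 in WT under Repsox. Elf3, an epithelial ETS factor, stood at 65.3 ± 1.62, 175 ± 9.10, 0.574 ± 0.406 and 53.5 ± 8.54 CPM in the same groups. The interaction was log2 4.40 ± 0.17 for Tfap2c and 5.16 ± 0.28 for Elf3. Tfap2a differed already under Repsox, being lower in K36M, at 3.29 ± 0.464 against 36.8 ± 4.47 CPM (log2 -3.49 ± 0.20). Klf4, the gene that rose in WT (log2 0.57 ± 0.07), is also a reprogramming factor, and its reads can come from the transgene.

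**Figure D4:**
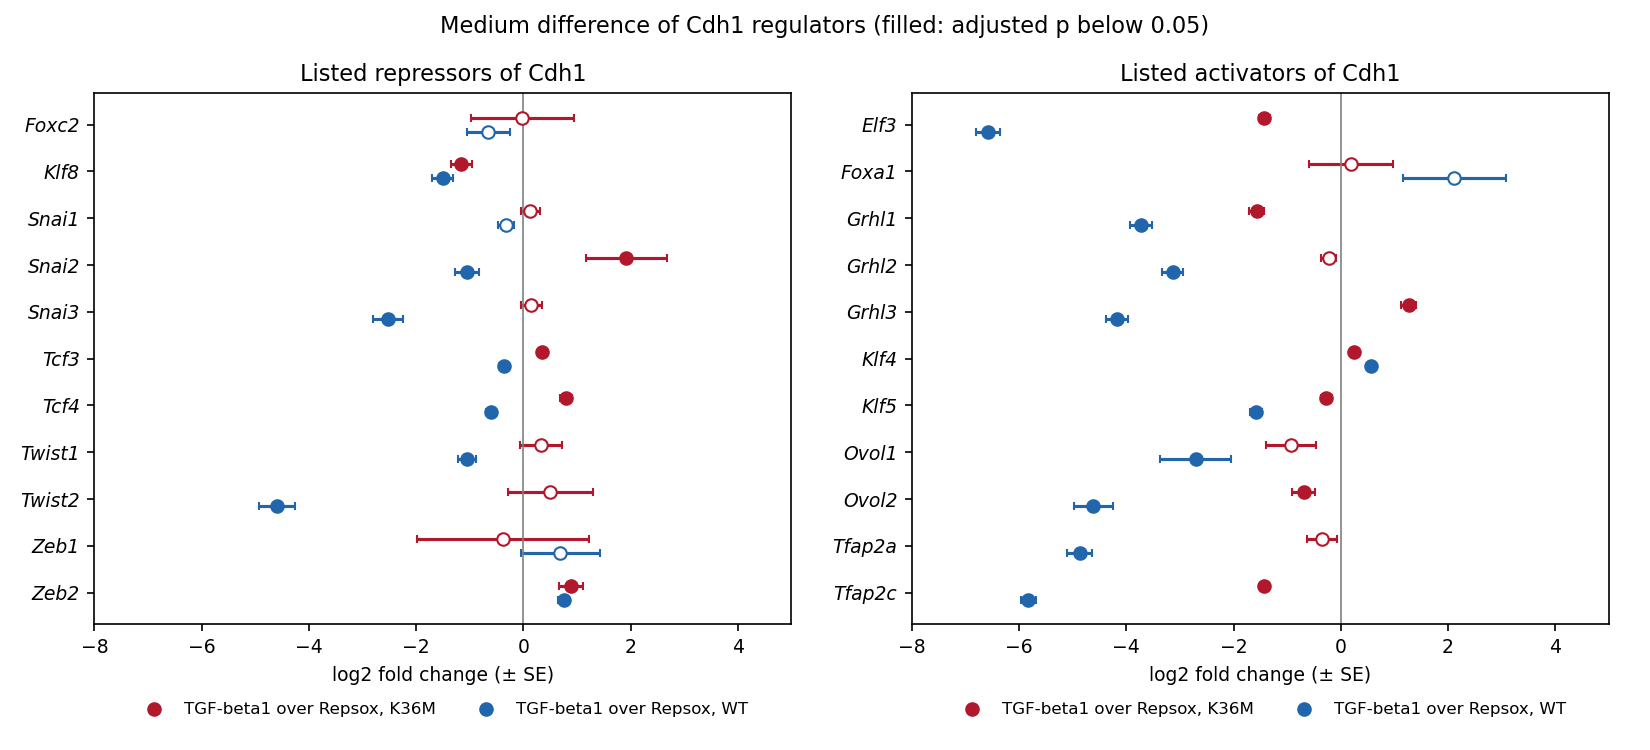
Log2 fold changes (± SE) for TGF-beta over Repsox in K36M and in WT of listed repressors (left) and listed activators (right) of Cdh1, from edgeR. Filled points passed an adjusted p of 0.05. Zeb2 is the only called repressor to the right of 0 in WT (log2 0.75), and the activators in WT reach down to -6.58 (Elf3).

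Enzymes that mature, cut or turn over cadherins were mostly higher in WT under TGF-beta. Of 14 tested of 15 listed, 1 was higher and 5 lower than under Repsox in K36M (24.7% and 23.6% of all genes), and 9 higher and 1 lower in WT (29% and 33.4%). Against WT, 11 of 14 were lower in K36M under TGF-beta, where 33.9% of all genes were (median log2 -1.42). Adam10, the protease that sheds the outer part of E- and N-cadherin, stood at 69.6 ± 0.362 CPM in K36M under TGF-beta, 89.6 ± 6.18 in K36M under Repsox, 280 ± 0.0386 in WT under TGF-beta and 132 ± 15.1 in WT under Repsox. Furin, which removes the cadherin propeptide, stood at 231 ± 8.16, 256 ± 6.73, 523 ± 16.1 and 191 ± 27.2 CPM. Mmp14, a membrane metalloprotease, was higher under TGF-beta in both genotypes, by log2 1.19 ± 0.08 in K36M and 2.30 ± 0.07 in WT.

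Of the 7 cadherins, 4 lie on chromosome 8, and Cdh1 and Cdh3 lie close together there, with 1 annotated gene, Gm10073, between them. Within 500 kb of the pair, 22 other genes were tested. TGF-beta against Repsox in WT gave 3 higher and 6 lower of these 22 (median log2 -0.10), where 29% and 33.4% of all genes were. K36M against WT under TGF-beta gave 7 higher and 6 lower (median -0.02), where 36.4% and 33.9% of all genes were. The next gene downstream, Tmco7, had log2 0.09 in K36M (adjusted p = 0.559) and -0.31 in WT (adjusted p = 0.0331) for the medium difference. Esrp2, an epithelial splicing regulator in the window that is named after its values were seen, was higher in K36M than in WT by log2 0.45 under TGF-beta and 0.97 under Repsox. Its medium difference was log2 -1.23 in K36M and -0.71 in WT. The interaction for Esrp2 was log2 -0.52 (adjusted p = 0.00461), opposite in sign to that of Cdh1 (4.13).

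The genes whose profile was nearest to each cadherin were sought among 11658 others, by the root mean square difference of mean-centred log2 CPM over the 8 libraries. This is a description over 4 groups of 2 and has no test. Nearest to Cdh1 were Tmem82 (0.161), Spint1 (0.177), a membrane inhibitor of epithelial serine proteases, and the kinase gene Tnk1 (0.214). Nearest to Cdh2 were Tmem35 (0.222), the laminin chain gene Lama2 (0.266) and Thbs1 (0.322), which encodes thrombospondin 1. Nearest to Cdh3 were Trim6 (0.119), Bmp8b (0.167) and Cln6 (0.169), and to Cdh4 Prr5l (0.173), Rffl (0.216) and Pfkfb1 (0.259). Nearest to Cdh13 were Ccnd1 (0.153), which encodes cyclin D1, Ehd2 (0.199) and the lysyl oxidase relative Loxl1 (0.226). Cdh11 had Tnfsf11 (0.671), Mef2c (0.742) and the repressor gene Snai2 (0.830) nearest, and Cdh6 had Tbc1d30 (1.09), Lphn3 (1.14) and Cd1d1 (1.14), looser matches than for the other 5, at low counts in K36M.

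Markers of cell types also differed between the groups, not all in the way of the cadherins, and their part in the results was not tested. All 4 groups, labelled as intermediates, held reads of both fibroblast and pluripotency markers. All 9 epithelial markers were higher in K36M than in WT in both media (36.4% of all genes under TGF-beta, 28.8% under Repsox). All 9 were also lower in WT under TGF-beta than under Repsox (33.4% of all genes). Their sum was 2870 to 3073 CPM in K36M under TGF-beta, 3914 to 4079 in K36M under Repsox, 115 to 134 in WT under TGF-beta and 1524 to 1660 in WT under Repsox. The 9 fibroblast markers summed to 2908 to 3065, 1979 to 2013, 18328 to 19865 and 5409 to 6080 CPM. Fn1 and Vim had the most counts among them (370421 and 190141 over all libraries). TGF-beta against Repsox gave 8 of the 9 higher and 1 lower in K36M (24.7% and 23.6% of all genes), with median log2 1.64. In WT it gave 6 higher and 3 lower (29% and 33.4%), with median log2 1.42. Their interaction was above 0 for 6 and below 0 for 2 (28.5% and 22.6%), with median log2 0.75. Under TGF-beta 6 of 9 were lower and 1 higher in K36M than in WT (33.9% and 36.4% of all genes). Under Repsox 9 of 9 were lower (26.9%). The 4 smooth muscle markers summed to 269 to 277, 24.9 to 26.5, 1247 to 1371 and 37.4 to 42.2 CPM. The 3 neural markers read summed to 234 to 252, 90.5 to 95.3, 1128 to 1273 and 157 to 176 CPM, of which Nes, which mesenchyme also expresses, gave most. The 8 pluripotency markers summed to 990 to 1008, 1358 to 1388, 745 to 779 and 1383 to 1593 CPM, part of which can be Pou5f1 and Sox2 transgene. In WT 6 of the 8 were lower and 1 higher under TGF-beta than under Repsox (33.4% and 29% of all genes), with median log2 -5.30. In K36M 5 were lower and 2 higher (23.6% and 24.7%), with median log2 -0.87. K36M against WT gave 6 higher and 2 lower under TGF-beta (36.4% and 33.9%), with median log2 4.58. Under Repsox it gave 4 higher and 2 lower (28.8% and 26.9%), with median log2 0.16. Trophoblast markers summed to 40.9 to 45.6, 157 to 173, 3.18 to 4.31 and 52.5 to 54.3 CPM. Endothelial markers summed to 88.6 to 89.5, 58.6 to 62.4, 120 to 121 and 47.8 to 48.3 CPM, mostly Tek, with Tie1 at 0 in WT under TGF-beta. Keratinocyte, blood and striated muscle markers summed to at most 34.8, 31.3 and 7.54 CPM in any library, with Ptprc, Hba-a1, Myod1 and Myog at no more than 10 counts over all 8 libraries. All 3 keratinocyte markers were higher in K36M than in WT under TGF-beta (36.4% of all genes), with median log2 6.44. Their sums there were 29.4 to 34.8 against 5.74 to 8.26 CPM. Under Repsox 1 was higher (28.8% of all genes) and 2 were not called, with median log2 -0.17.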

How the data were processed

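The deposited table holds whole-number counts of reads per gene (26930 genes, 8 libraries). The submitters' processing notes name mm9 and the tools STAR 2.5.0, HTSeq 0.11.2 and edgeR. Which tool did what, and with which annotation, strand setting and filter, is not given in the sources used here, so reads of overlapping or antisense genes are uncertain. CPM, shares and ratios were computed here from those counts. Testing used edgeR 4.0.16 (R 4.3.3) with filterByExpr, TMM factors (0.894 to 1.06) and a quasi-likelihood F test of 4 group means over all 8 libraries (4 residual degrees of freedom, common biological coefficient of variation 0.0702), with Benjamini-Hochberg adjustment over 15789 genes. Each SE is |log2 fold change| divided by the root of its F statistic. Totals of 10928302 to 15594217 counts set the precision. Coordinates and exon lengths are from GENCODE vM1 on mm9, which held 26763 of the table's identifiers. All 7 cadherins are reported in every comparison. From each list, the 3 genes lowest in adjusted p among those called in each pairwise comparison were named, with 10 catenins and repressors followed throughout; only part of them are printed. Members and lists were chosen with earlier results of these data known. The main edgeR fit was run on simulated counts with changes planted in K36M under TGF-beta. Only the genotype comparisons were read there, and the alternative fits were not tested in this way. Alternatives were RLE and upper-quartile factors, DESeq2 1.42.0, 2 other filters, a replicate block, only the 4 libraries compared, and leaving out each library.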

Additional observations from a re-analysis of the deposited data

Results flagged for a closer look

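For 6 of the 7 cadherins the medium difference (TGF-beta over Repsox) was not the same in K36M as in WT, by the interaction test over all 8 libraries. The log2 difference in K36M minus that in WT was 4.13 for Cdh1, 0.98 for Cdh3, 2.14 for Cdh11 and 0.98 for Cdh13. It was -1.35 for Cdh2 and -3.94 for Cdh6, and the size for Cdh6 rests on 0 and 7 counts in K36M under TGF-beta. For Cdh11 and Cdh13 the medium differences in K36M and WT had opposite signs, though the Cdh11 call within K36M was lost in 6 of 15 alternatives. The interaction was called for 51% of all tested genes. Groups of 2 libraries are too small to look for a library that stands apart within its group.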

How the results depend on the processing

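Of 517 recomputed cadherin log2 fold changes, 498 kept their direction and side of the threshold, 18 were no longer called and 1 reversed, and the cause was not tested. The number of cadherins lower under TGF-beta in K36M was 1 to 3 and the number higher 1 to 3 when each library was left out, and with DESeq2 1 was lower. Counts over all genes stayed within 1.5 times under all alternatives run, while 31 of 1184 counts in the gene lists moved by more. Upper-quartile factors shifted the median log2 difference by 0.125 for K36M against WT under TGF-beta and 0.118 for the interaction. With the longest transcript as length the log2 ratio of Cdh1 to Cdh2 was 7.40 in K36M under TGF-beta, 9.54 in K36M under Repsox, -3.04 in WT under TGF-beta and 4.63 in WT under Repsox.

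For TGF-beta over Repsox in K36M, Cdh1 was no longer called with RLE factors (log2 -0.26), upper-quartile factors (-0.22) or DESeq2 (-0.26), Cdh4 with DESeq2 (-0.92), and Cdh11 with only the 4 libraries compared (0.94). Leaving out each library moved Cdh1 over -0.31 to -0.26, Cdh4 over -1.12 to -0.73, Cdh11 over 0.39 to 1.66, Cdh13 over 0.35 to 0.69 and Cdh6 over -4.61 to 1.45, the last changing sign.

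Other genes that changed sign were near 0 or had few reads. Leaving out each library gave, in K36M for TGF-beta over Repsox, -0.027 to 0.28 for Snai1, -3.66 to 3.28 for Zeb1 (0.47 without K36M TGF-beta library 2) and -0.16 to 1.24 for Twist1 (-0.15 without K36M Repsox library 2), and in WT -0.013 to 0.054 for Ctnnb1. Ctnnb1 was 0.031 in K36M and -0.042 in WT with upper-quartile factors, and its interaction 0.074. K36M over WT ran from -0.091 to 0.027 for Jup under Repsox and from -0.029 to 0.063 for Ctnnd1 under TGF-beta, where it was -0.0028 with RLE factors, -0.012 with no filter and -0.0029 with DESeq2. The interaction ran from -0.24 to 0.56 for Zeb2 and -4.35 to 2.59 for Zeb1.

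The groups share replicate numbers, but same-numbered libraries did not deviate together over all tested genes (correlations -0.024 to 0.028 over 6 pairs of groups). A batch that acts on few genes would not show in this, so whether they share more than a number is not known. With a replicate block, genes called for TGF-beta over Repsox in K36M were 3905 higher and 3764 lower, against 3895 and 3731 without it, and no cadherin call changed. Depth limits Cdh4 throughout, and Cdh6 and Cdh11 in K36M.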
